A study of Drosophila melanogaster with 15 samples.

Results

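The 10 genes described here encode a part of the integrin subunits and basement membrane proteins of *Drosophila*, and a secreted integrin ligand. They are the integrin beta subunit gene *mys*, the integrin alpha subunit genes *mew*, *if* and *scb*, the laminin genes *LanA*, *LanB1* and *LanB2*, the integrin ligand gene *tnc*, the type IV collagen gene *vkg* and the perlecan gene *trol*. They were taken by symbol from the 16727 genes listed with read counts, with earlier results of these data known. All 10 passed the filter on low counts that left 8726 genes for testing. The cells were OSCs, a cultured line of ovarian somatic cells that corresponds to the follicle cells of the ovary. There were 3 conditions with 3 libraries each: OSCs transfected with siRNA against *l(3)mbt* (L(3)mbt KD), OSCs transfected with siRNA against *lint-O*, listed as *CG2662* (Lint-O KD), and OSCs transfected with siRNA against EGFP (control). All the cells therefore received an siRNA, for 48 hours, and no condition without transfection was used. L(3)mbt is a chromatin protein that represses germline genes in somatic cells, and Lint-O is a protein found with it. The comparisons ask which genes respond to siRNA against each.

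A basement membrane is a thin sheet of secreted proteins on which an epithelium rests. Laminins are trimers of an alpha, a beta and a gamma chain that assemble into a network next to the cell, type IV collagen forms a second network that gives the sheet its strength, and perlecan, a heparan sulfate proteoglycan, lies between them. Integrins are dimers of an alpha and a beta subunit in the cell membrane, which bind these proteins outside the cell and the actin cytoskeleton inside it. In the ovary, follicle cells make and secrete the basement membrane of the egg chamber and crawl over it through integrins, which is known to be needed for the egg to elongate.

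The reads assigned to genes numbered 19139572 to 32274601 per library, and 3 counts, taken as the smallest amount that could be shown, corresponded to between 0.0958 and 0.158 CPM, the unit of counts set against the library's total after scaling with edgeR's TMM method. This floor covers counting error only. *l(3)mbt* was at 55.6% of control in L(3)mbt KD and *CG2662* at 16.9% of control in Lint-O KD, and in each case the 3 KD libraries lay below all 3 control libraries. The OSC markers *tj*, *fs(1)Yb*, *piwi* and *Fas3* summed to 2211 to 2253 CPM in L(3)mbt KD, 2115 to 2221 CPM in Lint-O KD and 2048 to 2230 CPM in control. *piwi*, at 1619 CPM in L(3)mbt KD, 1450 CPM in Lint-O KD and 1447 CPM in control, made up most of this sum. *Fas3*, at 32.3 CPM in L(3)mbt KD, 19.8 CPM in Lint-O KD and 17.5 CPM in control, rose 1.85-fold in L(3)mbt KD (edgeR adjusted p = 6.93e-09). The 4 germline markers chosen, *vas*, *bam* and *bgcn* among them, summed to 418 to 479 CPM in L(3)mbt KD, 213 to 220 CPM in Lint-O KD and 14.3 to 15.3 CPM in control. *vas*, at 373 CPM in L(3)mbt KD, 182 CPM in Lint-O KD and 3.54 CPM in control, made up most of this sum in the KDs. The paper reports that *vas* is upregulated in OSCs by depletion of either protein, so its rise does not by itself show germline cells. The muscle markers *Mhc*, *Act57B* and *up* summed to 39.9 to 41.0 CPM in L(3)mbt KD, 34.1 to 40.9 CPM in Lint-O KD and 27.3 to 33.0 CPM in control. Of these, *Act57B* rose 1.77-fold in L(3)mbt KD (edgeR adjusted p = 2.55e-06). *Mhc* had 17.4 CPM in L(3)mbt KD and 18.3 CPM in control (edgeR adjusted p = 0.533), and *up* had at most 8 counts in L(3)mbt KD. Reads that fell on no annotated feature took 2.93% to 4.14% of the reads listed in L(3)mbt KD, 4.43% to 7.38% in Lint-O KD, and 8.45%, 7.98% and 2.76% in the control libraries. What part these differences had in the results that follow was not tested, except that the fit was repeated with reads on no feature as a covariate. In RNA from a whole culture, fewer cells of a type and less RNA per cell cannot be told apart.

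Levels were compared between genes as FPKM, the CPM divided by the merged length of all annotated exons in kilobases. The order of genes depends on this length, which can exceed that of the transcripts present. Among the L(3)mbt KD libraries, *mys* had 120.5 ± 3.54 FPKM and *LanB1* 118.5 ± 5.72 FPKM (SD, n = 3), and their ranges overlapped. *LanA* followed at 63.3 ± 3.26 FPKM, *LanB2* at 47.3 ± 3.05 FPKM and *if* at 38.6 ± 0.298 FPKM. A step below came *scb* at 10.6 ± 0.363 FPKM, *trol* at 7.90 ± 0.422 FPKM, *mew* at 5.84 ± 0.218 FPKM and *vkg* at 4.24 ± 0.121 FPKM, and *tnc* was last at 0.0274 ± 0.0202 FPKM. OSCs thus carried much more RNA for the beta subunit, the *if* alpha subunit and the laminin chains than for the collagen IV chain *vkg*. In Lint-O KD the order was *LanB1* (144 FPKM), *mys* (117.5), *LanA* (88.0), *LanB2* (55.3), *if* (40.5), *trol* (7.92), *scb* (6.26), *mew* (4.32), *vkg* (2.36) and *tnc* (0.0214 FPKM), and no neighbours overlapped. In control the same order held, with 136 FPKM for *LanB1* and 133 FPKM for *mys*, whose ranges overlapped, and 6.39 FPKM for *trol*, 4.80 FPKM for *scb*, 4.16 FPKM for *mew* and 1.13 FPKM for *vkg*. The place of *scb* above *trol* by FPKM was therefore seen in L(3)mbt KD and in neither Lint-O KD nor control. It rests on exon lengths of 5004 bases for *scb* (2 annotated transcripts) and 20674 bases for *trol* (25 annotated transcripts). In CPM, *trol* was above *scb* in every condition.

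**Figure D1:**
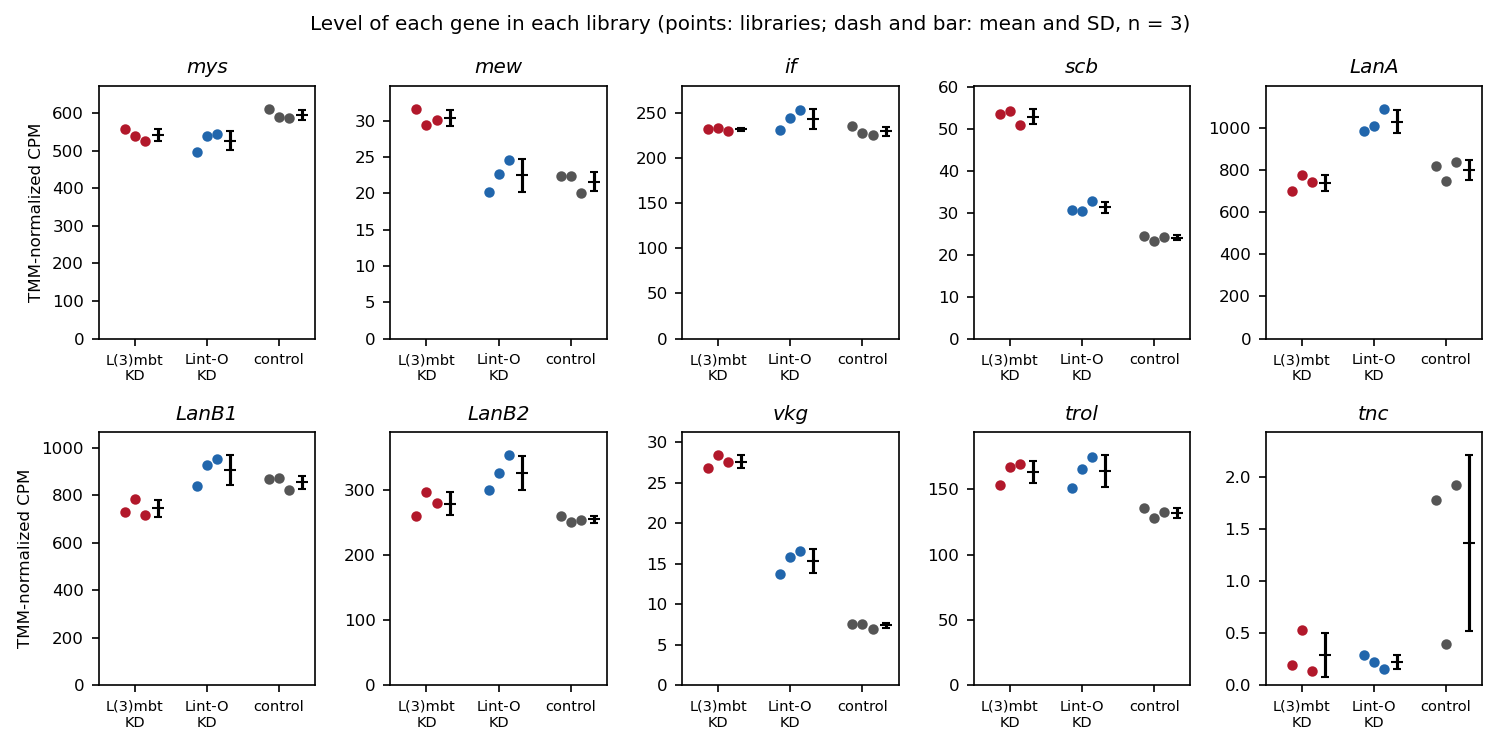
Level of each of the 10 genes (TMM-normalized CPM, linear axes from 0) in each library of L(3)mbt KD, Lint-O KD and control, with the mean and SD (n = 3) beside the points. *scb* and *vkg* form 3 separate steps, with L(3)mbt KD highest and control lowest, whereas *tnc* had 1 control library at 0.390 CPM, near the KD libraries.

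In L(3)mbt KD, *vkg*, *scb*, *mew* and *trol* rose, *LanB1* and *tnc* fell, and *mys*, *if*, *LanA* and *LanB2* did not pass the threshold (FDR of 0.01, edgeR's quasi-likelihood test, adjusted over all genes tested). The 4 of 10 upregulated stand beside 22.6% of all genes tested, and the 2 of 10 downregulated beside 15.9%. Scaled by library totals alone, 2235 genes were upregulated and 942 downregulated in L(3)mbt KD, against 1973 and 1391 with TMM, and 4 and 1 of the 10. In Lint-O KD, *vkg*, *scb*, *LanA*, *LanB2* and *trol* rose, *tnc* fell, and *mys*, *mew*, *if* and *LanB1* did not pass. Here 5 of 10 were upregulated, beside 16.8% of all genes tested, and 1 of 10 was downregulated, beside 7.58%. The median log2 fold change of the 10 was 0.07 in L(3)mbt KD and 0.20 in Lint-O KD, against -0.02 and 0.01 over all genes tested. Each KD was set against the same 3 control libraries, so the calls of the 2 comparisons are not independent.

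Between the KDs, L(3)mbt KD was higher than Lint-O KD for *vkg*, *scb* and *mew* (3 of 10, beside 9.24% of all genes tested) and lower for *LanA* and *LanB1* (2 of 10, beside 6.83%). The 10 had a median log2 difference of 0.02 there, against -0.01 over all genes tested. When a change of at least 1 on the log2 scale was also required, *vkg* and *scb* in L(3)mbt KD, *vkg* in Lint-O KD and *tnc* in either KD were the genes still called against control.

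**Figure D2:**
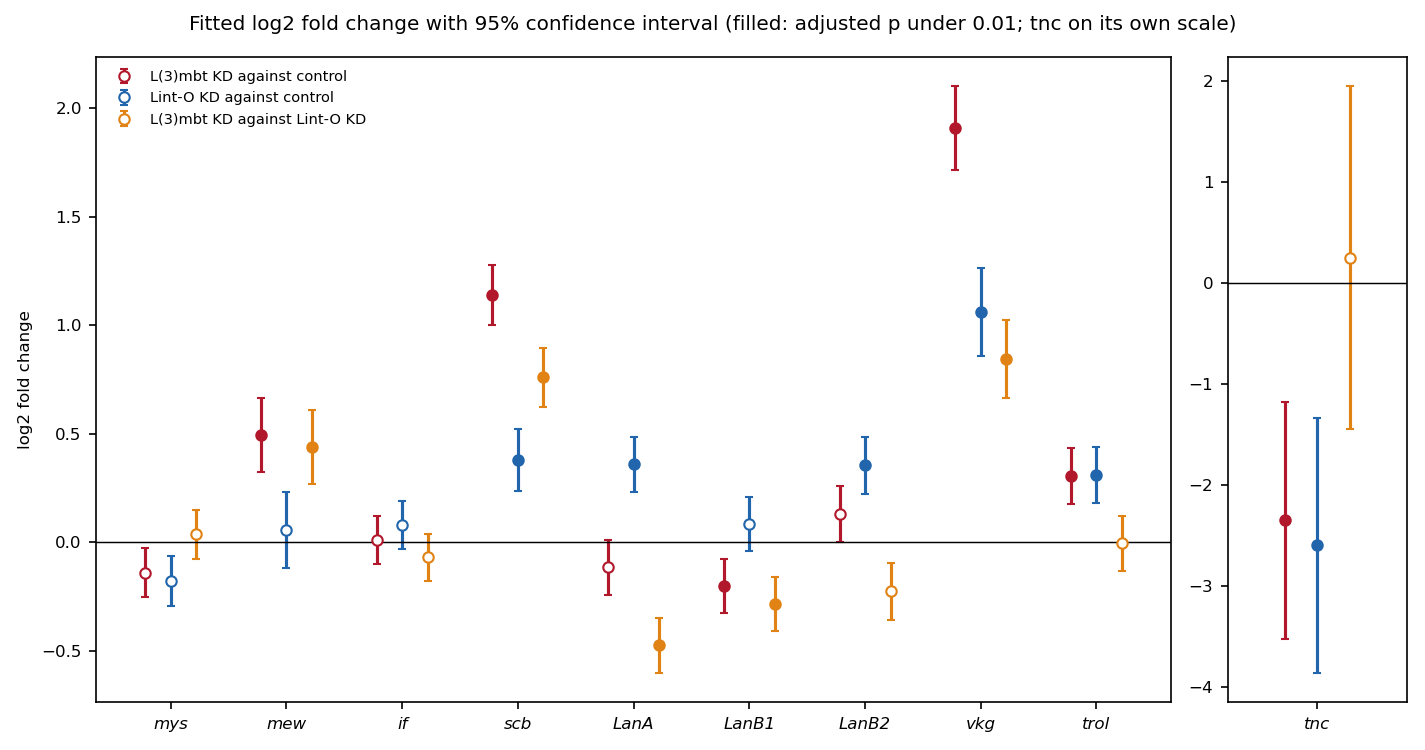
Fitted log2 fold changes of the 10 genes with 95% confidence intervals for each KD relative to control and for the KDs relative to each other (L(3)mbt KD over Lint-O KD); filled points passed the FDR of 0.01. *vkg* at 1.91 and *scb* at 1.14 in L(3)mbt KD stand highest, *LanA* and *LanB2* are filled in Lint-O KD only against control, and the intervals of *tnc*, on its own scale, are wide.

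The beta subunit gene *mys* (chromosome X, 8061645 to 8070237, plus strand, dm6) encodes the partner shared by the position-specific alpha subunits. It had 557, 538.5 and 525 CPM in L(3)mbt KD, 496, 539 and 544 CPM in Lint-O KD, and 611, 588 and 587 CPM in control. Every KD library lay below every control library, by a small margin. The log2 fold change was -0.14 in L(3)mbt KD (SE 0.05, edgeR adjusted p = 0.0388) and -0.18 in Lint-O KD (SE 0.05, edgeR adjusted p = 0.0151), neither past the threshold. In Lint-O KD the call depended on the settings: it was gained in 8 of 20 alternatives, among them DESeq2 (adjusted p = 0.00178) and the fits without control replicate 3 (0.00759) or without L(3)mbt KD replicate 3 (0.00404). The KDs differed from each other by a log2 value of 0.04, with a 95% interval of -0.08 to 0.15.

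*if* (chromosome X, 16752189 to 16783434, minus strand) encodes the alpha subunit that binds tiggrin and other ligands and held most of the alpha subunit RNA. It had 233, 233 and 229.7 CPM in L(3)mbt KD, 231, 244.5 and 254 CPM in Lint-O KD, and 236, 228 and 226 CPM in control. The 3 conditions overlapped. Its log2 fold change was 0.01 in L(3)mbt KD (95% interval -0.10 to 0.12) and 0.08 in Lint-O KD (95% interval -0.03 to 0.19).

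*scb* (chromosome 2R, 15248784 to 15258498, plus strand), the gene of a further alpha subunit, showed the largest change among *mys*, *mew*, *if* and *scb* in either KD. It had 1404, 1237 and 1475 counts in L(3)mbt KD, 740, 682 and 625 counts in Lint-O KD, and 537, 479 and 761 counts in control, which differ in depth. Scaled for depth, these were 53.7, 54.4 and 51.0 CPM in L(3)mbt KD, 30.6, 30.5 and 32.9 CPM in Lint-O KD, and 24.4, 23.3 and 24.3 CPM in control. The 3 conditions did not overlap, with L(3)mbt KD highest and control lowest. *scb* rose 2.21-fold in L(3)mbt KD (log2 fold change 1.14, SE 0.07, edgeR adjusted p = 2.69e-12) and 1.30-fold in Lint-O KD (log2 fold change 0.38, SE 0.07, edgeR adjusted p = 0.000138). L(3)mbt KD was 1.69-fold higher than Lint-O KD (log2 difference 0.76, SE 0.07, edgeR adjusted p = 1.52e-08). The summed germline markers had the same order of conditions, and what they have to do with *scb* was not tested.

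*mew* (chromosome X, 13214409 to 13258490, minus strand), the gene of the laminin-binding alpha subunit, responded to L(3)mbt KD. It had 31.6, 29.4 and 30.2 CPM in L(3)mbt KD, 20.2, 22.7 and 24.6 CPM in Lint-O KD, and 22.4, 22.4 and 20.1 CPM in control. All L(3)mbt KD libraries lay above all others, and Lint-O KD overlapped control. *mew* rose 1.41-fold in L(3)mbt KD (log2 fold change 0.49, SE 0.08, edgeR adjusted p = 2.97e-05), whereas in Lint-O KD its log2 fold change was 0.06 (SE 0.08, 95% interval -0.12 to 0.23, edgeR adjusted p = 0.642). The difference between the KDs passed its own test (log2 difference 0.44, SE 0.08, edgeR adjusted p = 0.000391). *mew* shares 107 exon bases with *CG15742* on the same strand, so reads there could belong to either gene. Reads listed as ambiguous between genes were counted for neither.

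Set against each other within each library, the alpha subunit transcripts were divided differently in the 3 conditions. *scb* took 19.3% ± 0.441 of the summed FPKM of *mew*, *if* and *scb* in L(3)mbt KD, 12.3% ± 0.349 in Lint-O KD and 10.2% ± 0.282 in control (SD, n = 3 each). *if* took 70.1% ± 0.397 in L(3)mbt KD, 79.3% ± 0.354 in Lint-O KD and 81.0% ± 0.151 in control. The remaining 10.6% ± 0.369 in L(3)mbt KD, 8.46% ± 0.428 in Lint-O KD and 8.81% ± 0.430 in control were *mew*. The shares of *scb* and *if* did not overlap between any conditions. For these ratios, the smallest p of a two-sided exact permutation test with n = 3 per condition is 0.1, which is what each separated pair gave, or 0.118 after Benjamini-Hochberg adjustment over the 39 ratio comparisons made. Relative to the beta subunit, the FPKM ratio *scb*/*mys* was 0.0879 ± 0.00227 in L(3)mbt KD, 0.0533 ± 0.00238 in Lint-O KD and 0.0361 ± 0.000819 in control, again without overlap (exact permutation p = 0.1 for each pair, n = 3 each).

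**Figure D3:**
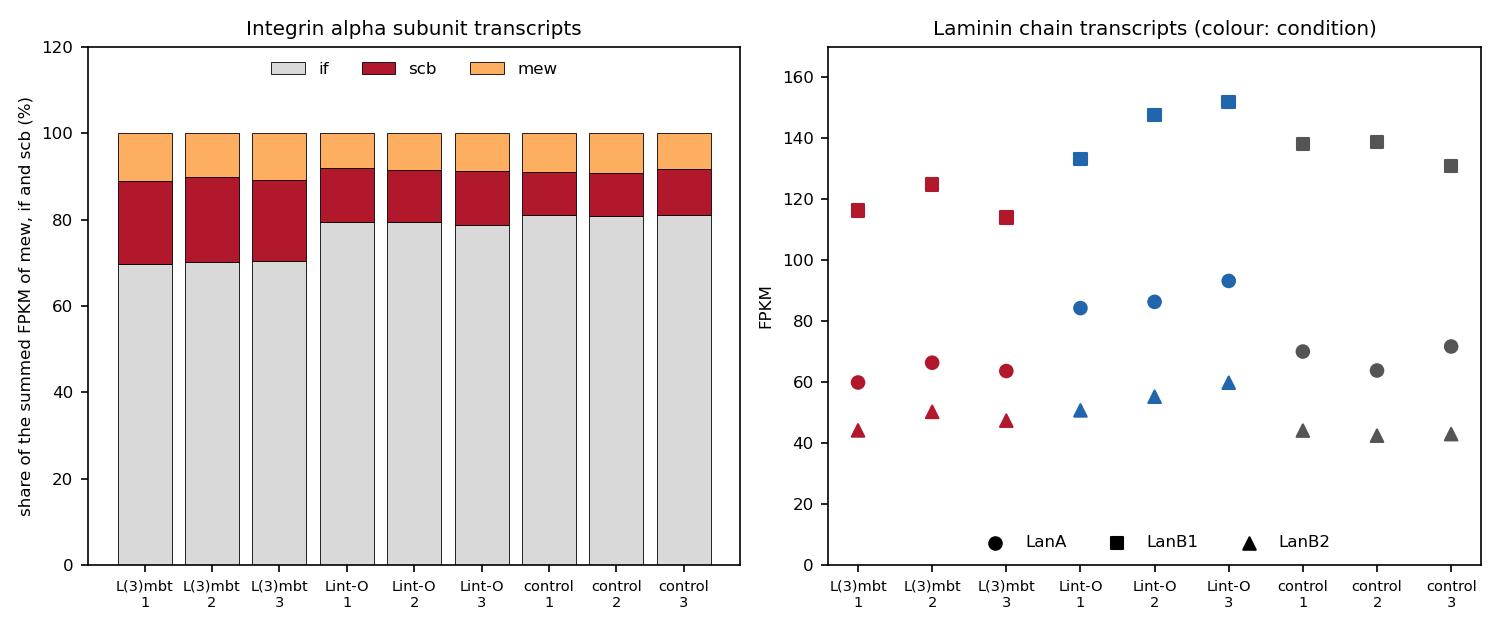
Left, the share of the summed FPKM of *mew*, *if* and *scb* held by each alpha subunit gene in each library (percent, bars from 0); right, the FPKM of the laminin chain genes *LanA*, *LanB1* and *LanB2* in each library, coloured by condition. The *scb* share is 18.8% to 19.7% in L(3)mbt KD, 11.9% to 12.6% in Lint-O KD and 9.93% to 10.5% in control, and all 3 Lint-O KD libraries lie above the others for *LanA*.

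The other 3 integrin subunit genes of the fly were expressed at lower levels. In L(3)mbt KD, *ItgaPS5* had 1.93 FPKM, *Itgbn* 1.34 FPKM and *ItgaPS4* 0.182 FPKM, beside 5.84 FPKM for *mew*. *ItgaPS5*, an alpha subunit gene related to *scb*, had 6.18 ± 0.751 CPM in L(3)mbt KD, 4.06 ± 0.384 CPM in Lint-O KD and 1.75 ± 0.218 CPM in control (SD, n = 3). It rose 3.51-fold in L(3)mbt KD (edgeR adjusted p = 1.14e-08) and 2.31-fold in Lint-O KD (edgeR adjusted p = 1.77e-05). *Itgbn*, the second beta subunit gene, had 4.62, 4.62 and 4.21 CPM in L(3)mbt KD, 2.23, 4.29 and 1.95 CPM in Lint-O KD, and 1.64, 1.46 and 1.25 CPM in control. It rose 3.12-fold in L(3)mbt KD (edgeR adjusted p = 1e-05) and 1.98-fold in Lint-O KD (edgeR adjusted p = 0.0054). Replicate 2 of Lint-O KD stood apart from the other libraries of its condition, and without it the log2 fold change in Lint-O KD was 0.55 and no longer passed (edgeR adjusted p = 0.0927). The call in Lint-O KD was also lost without control replicate 1, 2 or 3 or L(3)mbt KD replicate 3 (edgeR adjusted p = 0.0148, 0.0226, 0.038 and 0.0105), whereas the call in L(3)mbt KD held with any library left out. *ItgaPS4*, which starts at 15258761 just downstream of *scb* on the same strand, had 11 to 20 counts in L(3)mbt KD, 5 to 14 in Lint-O KD and 5 to 10 in control, and passed the threshold in neither KD (edgeR adjusted p = 0.0685 in L(3)mbt KD and 0.599 in Lint-O KD).

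Among the laminins, *LanA* and *LanB2* rose in Lint-O KD, and *LanB1* fell slightly in L(3)mbt KD. *LanA* (chromosome 3L, 6203831 to 6218022, minus strand) encodes the alpha chain that is joined to the beta chain LanB1 and the gamma chain LanB2. It had 700.3, 776 and 744 CPM in L(3)mbt KD, 986, 1010 and 1090 CPM in Lint-O KD, and 819, 746 and 838 CPM in control. The Lint-O KD libraries lay above all others, and L(3)mbt KD overlapped control. *LanA* rose 1.28-fold in Lint-O KD (log2 fold change 0.36, SE 0.06, edgeR adjusted p = 7.4e-05), and its log2 fold change in L(3)mbt KD was -0.11 (SE 0.06, edgeR adjusted p = 0.127). L(3)mbt KD was at 72.0% of Lint-O KD (log2 difference -0.47, SE 0.06, edgeR adjusted p = 5.29e-06), the largest difference between the KDs in this direction among the 10 genes.

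*LanB2* (chromosome 3L, 9614914 to 9623980, plus strand), the gene of the only gamma chain, had 261, 297 and 280.2 CPM in L(3)mbt KD, 300.2, 327 and 354 CPM in Lint-O KD, and 261, 251 and 254 CPM in control. The Lint-O KD libraries were highest, and L(3)mbt KD replicate 1 was nearly level with control replicate 1. *LanB2* rose 1.28-fold in Lint-O KD (log2 fold change 0.36, SE 0.06, edgeR adjusted p = 0.000114). Its log2 fold change in L(3)mbt KD was 0.13 (SE 0.06, edgeR adjusted p = 0.0881). L(3)mbt KD was at 85.5% of Lint-O KD, just outside the threshold (log2 difference -0.23, edgeR adjusted p = 0.0105), and this was called in 6 of 20 alternatives, including the fits without control replicate 3 (0.00831), L(3)mbt KD replicate 2 (0.00588) or Lint-O KD replicate 1 (0.00329).

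*LanB1* (chromosome 2L, 7811438 to 7820771, plus strand), the gene of the only beta chain, had 731, 785 and 717 CPM in L(3)mbt KD, 837, 928 and 954 CPM in Lint-O KD, and 868, 873 and 823 CPM in control. The L(3)mbt KD libraries were the lowest of all, and Lint-O KD overlapped control. *LanB1* was at 87.1% of control in L(3)mbt KD (log2 fold change -0.20, SE 0.06, edgeR adjusted p = 0.00871) and at 82.1% of Lint-O KD (log2 difference -0.28, SE 0.06, edgeR adjusted p = 0.00126). The first of these calls was lost in 11 of 20 alternatives, among them the covariate for reads on no feature (0.0268) and the fits without control replicate 1 (0.0162), control replicate 2 (0.0159), L(3)mbt KD replicate 1 (0.0419), L(3)mbt KD replicate 3 (0.0148) or Lint-O KD replicate 2 (0.0130). The second was lost without L(3)mbt KD replicate 1 (0.0112), Lint-O KD replicate 2 (0.0107) or Lint-O KD replicate 3 (0.0107).

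The laminin chains were also set against each other within each library. The FPKM ratio *LanB2*/*LanB1* was 0.399 ± 0.0180 in L(3)mbt KD, 0.383 ± 0.0101 in Lint-O KD and 0.318 ± 0.0113 in control (SD, n = 3), and both KDs lay wholly above control (exact permutation p = 0.1, adjusted 0.118). *LanA*/*LanB2* was 1.34 ± 0.0178 in L(3)mbt KD, below both Lint-O KD at 1.60 ± 0.0582 and control at 1.59 ± 0.0830. *LanA*/*LanB1* was 0.535 ± 0.0218 in L(3)mbt KD, 0.611 ± 0.0242 in Lint-O KD and 0.505 ± 0.0441 in control, and here L(3)mbt KD overlapped control. The other laminin alpha chain gene, *wb*, had a far lower level, 0.496 FPKM in L(3)mbt KD, 0.313 FPKM in Lint-O KD and 0.198 FPKM in control. It rose 2.48-fold in L(3)mbt KD (edgeR adjusted p = 2.25e-06) and had a log2 fold change of 0.64 in Lint-O KD (SE 0.19, edgeR adjusted p = 0.0105), just outside the threshold.

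*tnc* (chromosome 3R, 24984384 to 25022867, plus strand) encodes tenectin, a secreted ligand of integrins, and was close to the detection floor. It had 5, 12 and 4 counts in L(3)mbt KD, 7, 5 and 3 counts in Lint-O KD, and 39, 8 and 60 counts in control. These counts were 0.191, 0.528 and 0.138 CPM in L(3)mbt KD, 0.289, 0.223 and 0.158 CPM in Lint-O KD, and 1.77, 0.390 and 1.92 CPM in control. Control replicate 2 stood far below the other control libraries and below L(3)mbt KD replicate 2, whereas all Lint-O KD libraries lay below all control libraries. *tnc* fell by 2.35 on the log2 scale in L(3)mbt KD (SE 0.55, edgeR adjusted p = 0.00223) and by 2.60 in Lint-O KD (SE 0.59, edgeR adjusted p = 0.00292). The call in L(3)mbt KD was lost without L(3)mbt KD replicate 1 (-2.15, adjusted p = 0.0158) or L(3)mbt KD replicate 3 (-2.02, 0.0149), and the value was -3.07 without L(3)mbt KD replicate 2. In Lint-O KD the call was lost without control replicate 1 (0.0115), control replicate 3 (0.0109), or any of the Lint-O KD libraries (0.0143, 0.0180 and 0.0186).

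*vkg* (chromosome 2L, 5012144 to 5028191, minus strand) and *Col4a1* (chromosome 2L, 5029609 to 5037279, plus strand) encode the chains of type IV collagen in the fly, and the RNA of both rose in both KDs. They are transcribed away from each other, with 1417 bases between their annotated starts. Because the genes share this interval and moved in the same direction, the 250 bases before each start are shown in the direction of transcription, with a match of any of 4 searched motifs in capitals (RefSeq annotation and genome, Release 6, dm6). The windows searched ran from 250 bases before to 50 bases after the start, on both strands.
*vkg*, chr2L:5028192-5028441, minus strand: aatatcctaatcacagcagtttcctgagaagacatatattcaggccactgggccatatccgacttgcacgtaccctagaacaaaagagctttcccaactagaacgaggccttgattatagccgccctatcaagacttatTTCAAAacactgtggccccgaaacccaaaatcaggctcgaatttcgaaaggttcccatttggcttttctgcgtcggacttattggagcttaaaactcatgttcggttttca
*Col4a1*, chr2L:5029359-5029608, plus strand: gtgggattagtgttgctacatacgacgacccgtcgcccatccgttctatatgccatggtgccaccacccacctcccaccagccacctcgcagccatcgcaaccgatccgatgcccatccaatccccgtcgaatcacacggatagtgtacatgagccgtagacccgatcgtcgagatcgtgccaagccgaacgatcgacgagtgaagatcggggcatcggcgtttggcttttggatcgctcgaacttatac
The capitals mark a match, on the opposite strand, of the core of the cell cycle homology region (TTTGAA), which 40.7% of 13948 promoters of protein-coding genes hold. The DRE (TATCGATA, in 9.37% of promoters), the GAGA element (GAGAG, in 29.7%) and the TATA box (TATAAA, in 45.8%) had no match in either window, which says no more than that these letters are not there.

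*vkg* had 701, 645 and 798 counts in L(3)mbt KD, 332, 355 and 314 counts in Lint-O KD, and 167, 155 and 218 counts in control. Scaled for depth, these were 26.8, 28.4 and 27.6 CPM in L(3)mbt KD, 13.7, 15.9 and 16.5 CPM in Lint-O KD, and 7.59, 7.55 and 6.96 CPM in control. The 3 conditions were separate, and *vkg* showed the largest increase of the 10 genes in both KDs. It rose 3.75-fold in L(3)mbt KD (log2 fold change 1.91, SE 0.09, edgeR adjusted p = 1.08e-13) and 2.09-fold in Lint-O KD (log2 fold change 1.06, SE 0.10, edgeR adjusted p = 9.28e-09). L(3)mbt KD was 1.80-fold higher than Lint-O KD (log2 difference 0.85, SE 0.09, edgeR adjusted p = 1.94e-07). The calls of *vkg* against control were kept in 20 of 20 alternatives for either KD.

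*Col4a1*, listed under its older symbol *Cg25C*, had 111, 122 and 112 CPM in L(3)mbt KD, 45.1, 46.1 and 57.7 CPM in Lint-O KD, and 18.6, 22.3 and 21.2 CPM in control, with no overlap. It rose 5.55-fold in L(3)mbt KD (log2 fold change 2.47, SE 0.09, edgeR adjusted p = 1.4e-13) and 2.39-fold in Lint-O KD (log2 fold change 1.26, SE 0.09, edgeR adjusted p = 4.21e-09). Per length, *vkg* stayed below *Col4a1* in every condition. The FPKM ratio *vkg*/*Col4a1* was 0.227 ± 0.00591 in L(3)mbt KD, 0.295 ± 0.0280 in Lint-O KD and 0.339 ± 0.0408 in control (SD, n = 3). L(3)mbt KD lay below all other libraries (exact permutation p = 0.1, adjusted 0.118), and Lint-O KD overlapped control (exact permutation p = 0.3). In the fly, type IV collagen is also made by haemocytes and the fat body. The summed level of the haemocyte markers *Hml*, *NimC1*, *eater* and *He* was 0.344 to 1.01 CPM in L(3)mbt KD, 0.263 to 0.894 CPM in Lint-O KD and 0.591 to 0.767 CPM in control. Of these 4, *eater* and *He* were at or under 3 counts in every library, *eater* was at 0 in all of L(3)mbt KD, and *Hml* reached at most 20 counts. The fat body markers *Lsp2*, *Fbp1* and *Yp1* summed to at most 0.224 CPM in any library. The germline markers had the same order of conditions as *vkg*, and what they have to do with it was not tested.

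*trol* (chromosome X, 2470460 to 2545427, minus strand), the perlecan gene, had 153, 167 and 169 CPM in L(3)mbt KD, 151, 166 and 175 CPM in Lint-O KD, and 136, 128 and 132 CPM in control. All KD libraries lay above all control libraries, and the KDs overlapped. *trol* rose 1.24-fold in L(3)mbt KD (log2 fold change 0.31, SE 0.06, edgeR adjusted p = 0.00027) and 1.24-fold in Lint-O KD (log2 fold change 0.31, SE 0.06, edgeR adjusted p = 0.000404). The difference between the KDs was 0.00 on the log2 scale, with a 95% interval of -0.13 to 0.12. A microRNA gene, *mir-4955*, shares 23 exon bases with *trol* on the same strand.

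Side by side, *vkg* (log2 fold changes 1.91 in L(3)mbt KD and 1.06 in Lint-O KD) and *scb* (1.14 and 0.38) rose in both KDs and more in L(3)mbt KD. *mew* passed the threshold in L(3)mbt KD alone, and *LanA* and *LanB2* in Lint-O KD alone. For *mew* and *LanA* the difference between the KDs itself passed, whereas for *LanB2* it did not. *trol* rose in both, and *tnc* fell in both with a difference between the KDs of 0.25 (95% interval -1.45 to 1.94).

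Of the 44 related genes tested, out of 45 listed, 19 rose and 8 fell in L(3)mbt KD, 12 rose and 4 fell in Lint-O KD, and 14 were higher and 2 lower in L(3)mbt KD than in Lint-O KD. Over all genes tested, 22.6% rose and 15.9% fell in L(3)mbt KD, 16.8% rose and 7.58% fell in Lint-O KD, and 9.24% were higher and 6.83% lower in L(3)mbt KD than in Lint-O KD. The 8 and 4 related genes that fell in the KDs lay near these shares. Of 9 other basement membrane components and secreted ligands, 7 rose and 1 fell in L(3)mbt KD (median log2 fold change 1.04, beside 22.6% and 15.9% of all genes), and 5 rose and 0 fell in Lint-O KD (median 0.64, beside 16.8% and 7.58%). *Tig*, the gene of tiggrin, an integrin ligand, averaged 35.4 CPM in L(3)mbt KD, 28.3 CPM in Lint-O KD and 6.42 CPM in control, and rose 5.46-fold in L(3)mbt KD (edgeR adjusted p = 4.24e-07) and 4.35-fold in Lint-O KD (edgeR adjusted p = 2.86e-06). *SPARC*, the gene of a collagen-binding protein, had 178 CPM in L(3)mbt KD, 145 CPM in Lint-O KD and 101 CPM in control, and rose 1.76-fold in L(3)mbt KD (edgeR adjusted p = 1.04e-09) and 1.44-fold in Lint-O KD (edgeR adjusted p = 1.98e-06). *Ppn*, the papilin gene, rose 2.06-fold in L(3)mbt KD (edgeR adjusted p = 7.06e-07) and 2.13-fold in Lint-O KD (edgeR adjusted p = 7.03e-07). *Mp*, a gene of the multiplexin collagens, was the 1 that fell in L(3)mbt KD, to 38.8% of control (edgeR adjusted p = 9.77e-06). The nidogen gene *Ndg* had 1.69 CPM in L(3)mbt KD, 1.25 CPM in Lint-O KD and 0.926 CPM in control and passed in neither KD (edgeR adjusted p = 0.0174 in L(3)mbt KD and 0.325 in Lint-O KD).

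**Figure D4:**
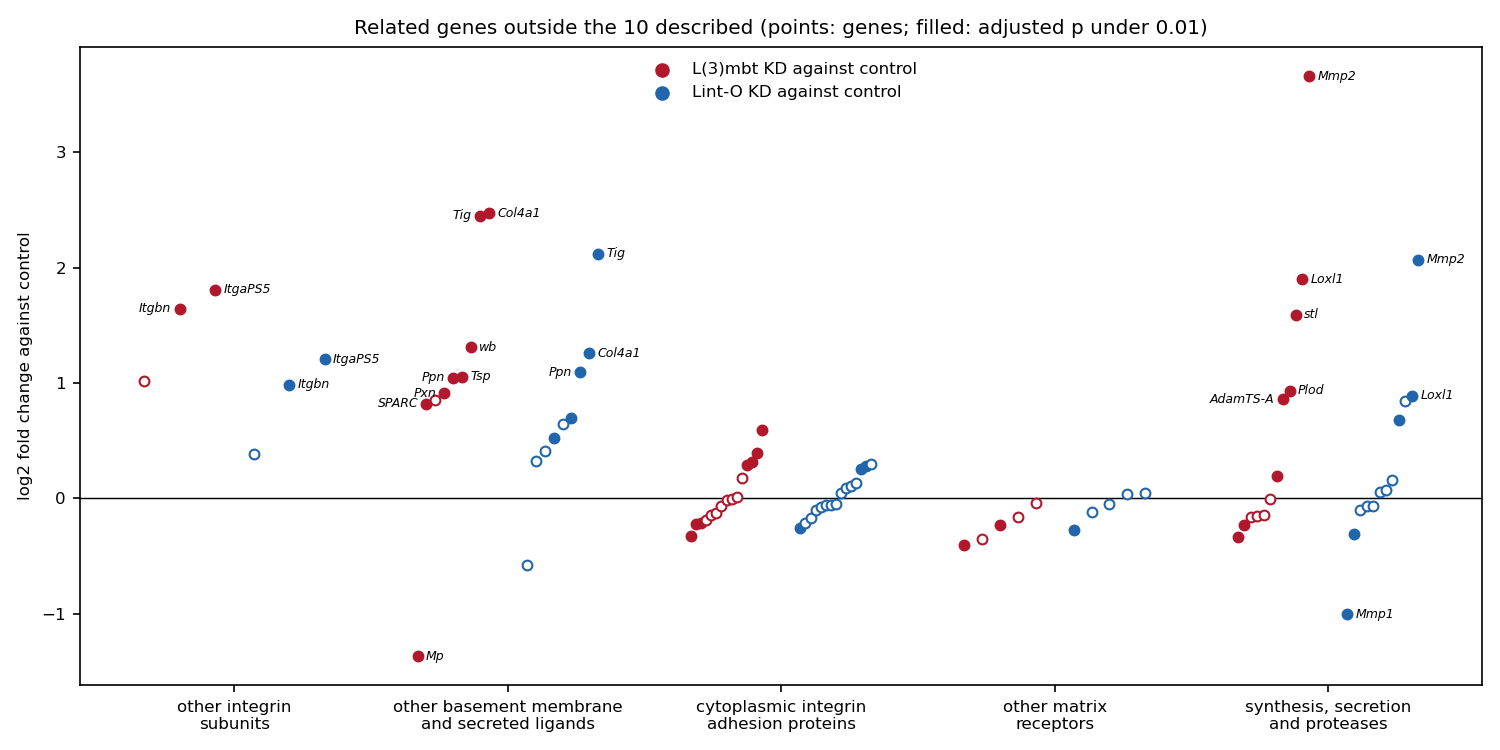
Log2 fold changes against control of the 44 related genes tested, in 5 lists, for L(3)mbt KD and Lint-O KD; each point is a gene, filled where it passed the FDR of 0.01, and the genes called with an absolute value above 0.8 are named. *Mmp2* at 3.66 in L(3)mbt KD is the highest point, and the cytoplasmic adhesion genes lie on both sides of 0.

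Inside the cell, integrins are joined to actin by a set of adaptor proteins. Tested here were 15 genes of cytoplasmic integrin adhesion proteins, which include the kinase genes *Fak* and *Src42A* beside adaptors. In L(3)mbt KD 4 rose and 3 fell (median log2 fold change -0.01, beside 22.6% and 15.9% of all genes), and in Lint-O KD 2 rose and 1 fell (median -0.05, beside 16.8% and 7.58%). These counts lay near the shares of all genes. *rhea*, the gene of talin, which links integrin tails to actin, had 172 CPM in L(3)mbt KD, 245 CPM in Lint-O KD and 201 CPM in control. It was called in opposite directions, at 85.6% of control in L(3)mbt KD (edgeR adjusted p = 0.00718) and 1.22-fold higher than control in Lint-O KD (edgeR adjusted p = 0.00189), and L(3)mbt KD was at 70.5% of Lint-O KD (edgeR adjusted p = 5.96e-06). *Ilk*, the gene of the integrin-linked pseudokinase, was at 86.2% of control in L(3)mbt KD (edgeR adjusted p = 0.0025) and had a log2 fold change of -0.08 in Lint-O KD (edgeR adjusted p = 0.28). The tensin gene *by* (log2 fold change 0.59), *CAP* (0.40) and *wech* (0.32) rose in L(3)mbt KD and the paxillin gene *Pax* fell by 0.33, while in Lint-O KD *wech* rose (0.25) and *p130CAS* fell by 0.26.

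Of 5 other matrix receptors, 0 rose and 2 fell in L(3)mbt KD (the glypican genes *dlp*, -0.40, and *dally*, -0.23), and 0 rose and 1 fell in Lint-O KD (*dlp*, -0.27), where all genes gave 22.6% and 15.9% (L(3)mbt KD) or 16.8% and 7.58% (Lint-O KD). Of 13 genes for collagen synthesis, matrix secretion and matrix proteases, 12 were tested, of which 6 rose and 2 fell in L(3)mbt KD and 3 rose and 2 fell in Lint-O KD, beside the same shares of all genes. The 2 matrix metalloproteinase genes of the fly went in opposite directions. *Mmp2* had 45.3, 46.3 and 43.3 CPM in L(3)mbt KD, 15.0, 14.5 and 15.1 CPM in Lint-O KD, and 3.27, 3.12 and 4.09 CPM in control, a rise of 12.7-fold in L(3)mbt KD (edgeR adjusted p = 3.29e-18) and 4.19-fold in Lint-O KD (edgeR adjusted p = 4e-13). *Mmp1* averaged 118 CPM in L(3)mbt KD, 74.5 CPM in Lint-O KD and 149 CPM in control, and fell to 79.1% of control in L(3)mbt KD (edgeR adjusted p = 0.00011) and 49.8% in Lint-O KD (edgeR adjusted p = 2.12e-11). *Loxl1*, a gene of an enzyme that crosslinks collagen, rose 3.73-fold in L(3)mbt KD and 1.85-fold in Lint-O KD, and *Plod*, the gene of a collagen lysyl hydroxylase, rose 1.91-fold in L(3)mbt KD (edgeR adjusted p = 9.26e-12) and 1.60-fold in Lint-O KD (edgeR adjusted p = 3.8e-09). The protease gene *stl* rose in L(3)mbt KD (1.59 on the log2 scale), *Tango1*, whose product loads collagen into transport carriers, fell by 0.23 there, and *Timp*, the gene of a metalloproteinase inhibitor, fell by 0.31 in Lint-O KD.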

How the data were processed

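Transcripts were measured by RNA-seq in OSCs after siRNA against *l(3)mbt*, *lint-O* or EGFP, in 3 libraries each. The files deposited hold raw counts, not normalized, of the reads on each gene. The labels name poly-A selection, and the paper's methods name both rRNA removal with a kit and poly-A selection. HISAT2 alignments to dm6, made after rRNA reads had been filtered out, were counted with HTSeq. Versions, annotation and strand setting are not given in the sources used here. Reads on no feature or ambiguous between genes were left out of the totals.

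Tests were run with edgeR 4.0.16 (R 4.3.3): filterByExpr, TMM, and a quasi-likelihood fit (glmQLFit with robust estimation, glmQLFTest) of all 9 libraries, p-values being adjusted by Benjamini-Hochberg over 8726 genes at an FDR of 0.01. FPKM used exon lengths of the RefSeq annotation of Release 6. The paper calls its triplicates of these conditions biological replicates, without saying whether they were separate cultures, so p-values measure the spread between these libraries. Within a condition, libraries differed by more than sampling noise (chi-square per degree of freedom 4.74 to 20.1). The paper's methods name no block, and none was used. Same-numbered libraries correlated weakly, with signs that differed between the comparisons.

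The 10 genes and the related lists were chosen with earlier results of these data known. Named beside the 10 were direct partners and paralogs, the genes depleted and, per list and KD, the 3 genes per direction with the largest change among those called with all KD libraries on 1 side of control. Alternatives were DESeq2 1.42.0, its size factors, library totals alone, no filter, at least 10 counts in every library, only the conditions compared, the replicate block, a covariate, an FDR of 0.05, a required log2 change of at least 1 in size, leaving out each library and, added after seeing the data, edgeR without robust estimation. ChIP-seq was not analysed here.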

Additional observations from a re-analysis of the deposited data

How the results depend on the processing

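Counts of upregulated genes among the 10 (4 in L(3)mbt KD, 5 in Lint-O KD and 3 between the KDs) stayed the same with each library left out in turn, and moved to 2, 1 and 0 when a log2 change of at least 1 in size was required. Counts of downregulated genes were small and less stable. In L(3)mbt KD, the main count of 2 became 3 at an FDR of 0.05, 1 with library totals alone, the covariate, the minimum log2 fold change or edgeR without robust estimation, 0 with at least 10 counts in every library or only the libraries compared, and 0 to 2 with a library left out. In Lint-O KD, the main count of 1 became 2 with DESeq2, DESeq2's size factors, no filter, the covariate or an FDR of 0.05, 0 with at least 10 counts in every library or only the libraries compared, and 0 to 2 with a library left out. Between the KDs, the main count of 2 became 3 with no filter, the replicate block or an FDR of 0.05, 0 with the minimum log2 fold change and 1 to 3 with a library left out. With the replicate block, *mys* was called in Lint-O KD (-0.18, adjusted p = 0.00772), *tnc* was not (-2.54, adjusted p = 0.011), and *LanB2* was called between the KDs (-0.22, adjusted p = 0.00691), and no other call of the 10 changed. Same-numbered libraries correlated at -0.200 to -0.122 between L(3)mbt KD and control and 0.0620 to 0.148 between Lint-O KD and control. Between the KDs they correlated at 0.00150 to 0.0463. Differently numbered libraries of Lint-O KD and control correlated at -0.102 to 0.0436, below every same-numbered pair of that comparison. The correlations were weak and differed in sign between comparisons, and the numbers were not taken as pairs.

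Values that changed sign were close to 0 or imprecise and none was called. They were *if* in L(3)mbt KD (-0.0221 without the filter, -0.0297 to 0.0104 with a library left out), *mew* in Lint-O KD (-0.0225 to 0.130), and, between the KDs, *mys* (-0.0048 to 0.0612), *trol* (0.0107 with DESeq2, 0.0105 with its size factors, 0.0184 with library totals, 0.008 with at least 10 counts, -0.0625 to 0.0436 with a library left out) and *tnc* (-0.0862 with the covariate, -0.469 to 0.602). *tnc* gave no value with at least 10 counts in every library, nor in Lint-O KD or between the KDs with only the libraries compared. The cause of these changes was not tested. *Itgbn* in Lint-O KD also lost its call with only the libraries compared (adjusted p = 0.0243) and without robust estimation (adjusted p = 0.0111). Depth limits *tnc*, with 3 to 60 counts per library.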

Other observations

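Within Lint-O KD, replicate 3, the library with the fewest reads on genes, had the highest CPM of its condition for 9 of the 10 genes, and replicate 1 the lowest for 8 of 10. Over all genes tested, replicate 3 was highest for 39.1% and replicate 1 lowest for 37.9%. Reads on no feature took 4.43% of the reads listed in replicate 3 and 7.38% in replicate 1. Without either library, 5 of the 10 genes were upregulated in Lint-O KD, as with all libraries. In L(3)mbt KD, replicate 2 was highest for 7 of 10, beside 33.2% of all genes tested.

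In promoter windows from 250 bases before to 50 bases after the annotated start, the TTTGAA core of the cell cycle homology region matched in 6 of the 10 genes (*mew*, *if*, *scb*, *LanB1*, *LanB2* and *vkg*), beside 40.7% of 13948 promoters. GAGAG matched in 4 of 10 (*LanA*, *LanB1*, *LanB2* and *trol*), beside 29.7%, with 7 matches before *trol*, most of which overlap another. TATAAA matched in 2 of 10 (*mew* and *scb*), beside 45.8%, and TATCGATA in 1 of 10 (*mew*), beside 9.37%. The windows of *mys* and *tnc* held none of the 4. These are matches of letters and were not set against binding data here.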
